A study of Homo sapiens with 12 samples.

Results

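LUM, DCN, THY1, CLDN4 and EPCAM were followed across 4 treatments of A2058, an established human melanoma line. They are 5 of the 14580 genes measured on the arrays, chosen by name: LUM, DCN and THY1 as markers of connective tissue stroma, and CLDN4 and EPCAM as markers of epithelium. These genes, and the lists of genes set beside them, were chosen with earlier results of these data known. The shares called among them, given below beside those of all genes, are thus a description and not a test of enrichment. Each of the 5 genes had 1 probe set (the group of probes that measures a transcript), so no choice between probe sets arose. A2058 cells were treated for 24 h with DMSO, the solvent control, with 100 nM dabrafenib and 10 nM trametinib (DT), with 1 µM entinostat (E), or with all 3 drugs at these doses (DTE). Dabrafenib inhibits RAF kinases, trametinib inhibits MEK, and entinostat inhibits class I histone deacetylases, enzymes that remove acetyl groups from histones. Each treatment had 3 arrays, and all 12 arrays came from this single line, so the values describe A2058 and no other melanoma. The arrays are called biological replicates in their titles and technical triplicates in the series design. A p-value here thus covers the spread among arrays of the same treatment and no more. That spread was pooled over the 4 treatments and drawn towards that of all genes, and it may be of a technical kind.

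Lumican (LUM) and decorin (DCN) are small leucine-rich proteoglycans, secreted proteins that bind collagen and govern how its fibrils assemble, and in tissue they are made mainly by fibroblasts. THY1 (CD90) is a small glycoprotein held on the outer face of the membrane by a lipid anchor, carried by fibroblasts and other mesenchymal cells, and it binds integrins on neighbouring cells. Claudin-4 (CLDN4) is a membrane strand protein of the tight junction, the seal between epithelial cells, and EpCAM (EPCAM) is a surface glycoprotein of epithelia that takes part in adhesion and signalling. Melanoma arises from melanocytes, which come from the neural crest and belong to neither class.

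The lineage of the cells was read from 9 of 12 melanocyte markers that were measured, of which 7 lay above the median gene in DMSO. Their summed intensity was 1715 to 1777 in DMSO, 2855 to 3327 in DT, 1564 to 1726 in E and 1859 to 1999 in DTE. Among the markers that define fibroblasts and epithelium, COL1A1, COL1A2, COL3A1, PDGFRA, PDGFRB and CDH1 were not analysed here. The array medians were not equal. They lay between 4.58 and 4.80 on the log2 scale in DMSO, 4.40 and 4.60 in DT, 4.87 and 4.90 in E, and 4.61 and 4.69 in DTE. Forcing all arrays to 1 distribution (quantile normalization) moved the median change of all genes from -0.17 to 0.00 for DT against DMSO, from 0.07 to -0.03 for E against DMSO and from -0.19 to 0.00 for DTE against E. Values below are on the deposited scale. The normalized value is added where it changed a call of the 5 genes, and for only part of the other genes and lists.

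With entinostat alone the signals of all of LUM, DCN, THY1, CLDN4 and EPCAM were called higher than in DMSO (limma, Benjamini-Hochberg adjusted p under 0.05 over all genes, 3 arrays a group). CLDN4 rose 2.09-fold, LUM 1.91-fold and THY1 1.62-fold. The EPCAM and DCN signals read 0.73 and 0.45 log2 units higher, and no fold is given for them because EPCAM in DMSO, and DCN in every group, lay under the lower quartile of all genes and were not shown to lie above background. Of all genes, 12.5% were called higher and 3.54% lower in this comparison, or 9.67% and 8.45% after quantile normalization, and the count lower fell from 516 to 303 without DMSO replicate 2. For each of these genes the 3 arrays with entinostat lay above the 3 DMSO arrays, which was so for 22.3% of all genes. After quantile normalization all 5 were still called, and after centring each array on its median 4 were, DCN being lost.

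Added to dabrafenib and trametinib, entinostat raised LUM 2.53-fold and THY1 1.44-fold over DT. The dim EPCAM and DCN signals read 0.48 and 0.67 log2 units higher. No fold is given for EPCAM because its DT arrays (3.04, 2.97 and 2.80) stood about the lower quartile for DT (2.91). CLDN4 was 1.52-fold higher and was not called (limma adjusted p = 0.0608), and its DT replicate 3 (2.38) lay under that quartile. Thus 4 of 5 were called higher, where 13.8% of all genes were, and 5.09% were called lower. The same 4 genes had all DTE arrays above all DT arrays, as 21.1% of all genes had. After quantile normalization 3 of the 5 were called (12.2% of all genes higher, 12% lower), and after median centring 2 were. The count of all genes called lower was 742, and 473 without DT replicate 2. In a bulk sample, more cells making a transcript and more transcript per cell cannot be told apart.

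**Figure D1:**
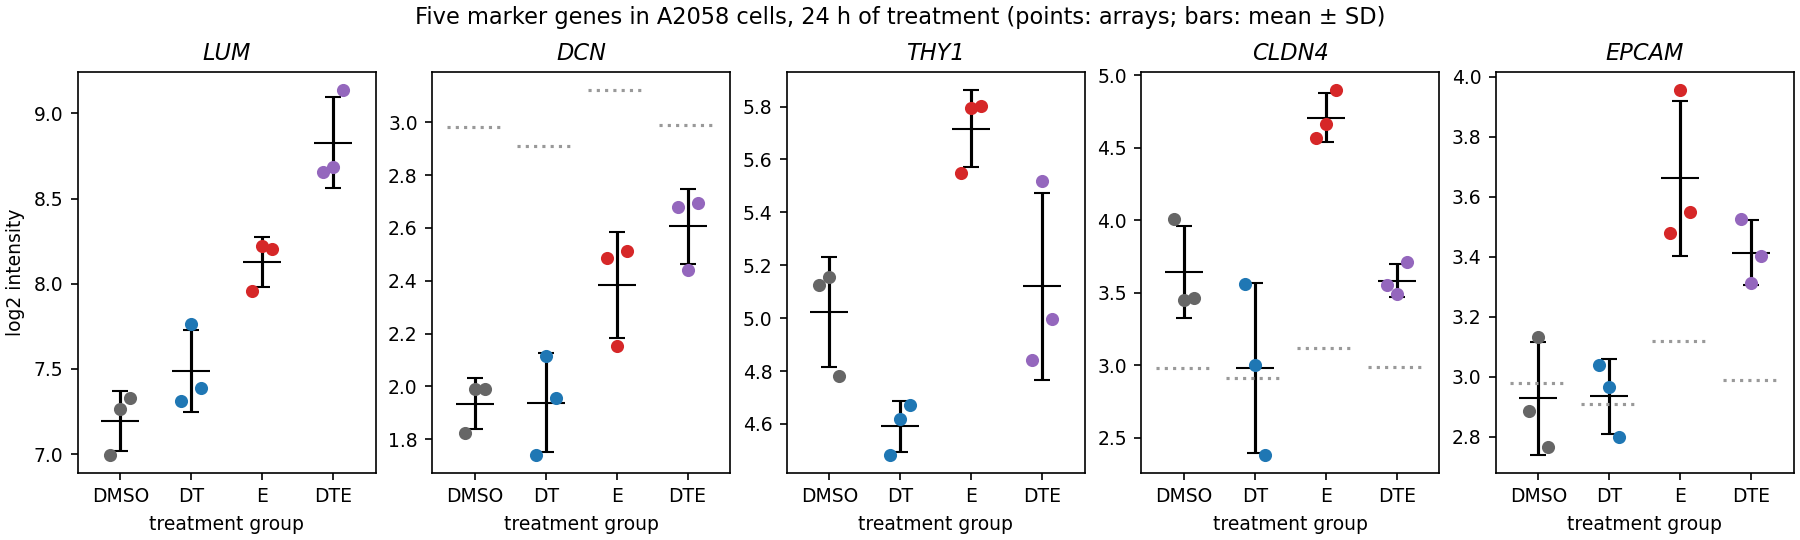
Level of each gene in each array (points; log2 of the deposited intensity, vertical axis) with the group mean and SD, for DMSO, DT, E and DTE, 3 arrays each; the dotted lines in the DCN, CLDN4 and EPCAM panels mark the lower quartile of all genes in that group. LUM stood highest in DTE (mean 8.83), THY1, CLDN4 and EPCAM stood highest in E (means 5.72, 4.71 and 3.66), and DCN lay under the lower quartile in all 4 groups. Heights are comparable within a panel, not between panels.

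Of the stromal genes, LUM showed the largest and steadiest change. Its log2 level was 6.997, 7.26 and 7.33 in the DMSO arrays and 7.31, 7.76 and 7.39 in the DT arrays. With entinostat it was 7.96, 8.22 and 8.21, and with all 3 drugs 8.66, 8.69 and 9.14. The E arrays lay above all DMSO and DT arrays, and the DTE arrays above all others, while DMSO and DT overlapped. The change was 0.93 log2 units (SE 0.16, 95% CI 0.61 to 1.26, limma adjusted p = 0.000344) for E against DMSO. For DTE against DT it was 1.34 (SE 0.16, 95% CI 1.01 to 1.67, adjusted p = 5.65e-06). Leaving out any 1 array kept both calls, with changes of 0.83 to 1.02 and 1.18 to 1.47.

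LUM was also the only gene of the 5 called higher with the 3 drugs than with entinostat alone, though DCN was called as well after median centring. It was 1.62-fold higher in DTE than in E (log2 change 0.70, 95% CI 0.37 to 1.03, limma adjusted p = 0.00368) and 3.10-fold higher in DTE than in DMSO (log2 change 1.63, adjusted p = 3.96e-07). For dabrafenib and trametinib alone the log2 change was 0.29 (95% CI -0.03 to 0.62, adjusted p = 0.183). That call depended on scaling: after quantile normalization the change was 0.66 (adjusted p = 0.00187) and after median centring 0.49 (adjusted p = 0.0241).

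DCN was a dim signal throughout. Its log2 level was 1.82, 1.99 and 1.99 in DMSO, 1.74, 2.12 and 1.96 in DT, 2.49, 2.15 and 2.51 in E, and 2.68, 2.44 and 2.70 in DTE. All 12 values lay under the lower quartile of all genes, which was 2.98 for DMSO, 2.91 for DT, 3.12 for E and 2.99 for DTE, so these levels were not shown to lie above background. Within that low range each array with entinostat read above each array without it. The log2 change was 0.67 for DTE against DT (SE 0.14, 95% CI 0.38 to 0.95, limma adjusted p = 0.00157), and it held with any 1 array left out. The DTE signal also read 0.67 log2 units above DMSO (adjusted p = 0.000916).

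For E against DMSO, the DCN change was 0.45 (SE 0.14, 95% CI 0.16 to 0.73, limma adjusted p = 0.0296), and this call rested on single arrays. Leaving out DMSO replicate 1 gave 0.39 (adjusted p = 0.12), and leaving out DMSO replicate 3 gave 0.48 (adjusted p = 0.0543). The call was also lost without E replicate 1 (0.40, adjusted p = 0.107) or E replicate 3 (0.39, adjusted p = 0.125), and after median centring (0.25, adjusted p = 0.185). DT against DMSO gave 0.00 (95% CI -0.28 to 0.29), and DTE against E gave 0.22 (95% CI -0.06 to 0.51, adjusted p = 0.242), or 0.45 after median centring (adjusted p = 0.0363), which passed the test.

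THY1 rose with entinostat alone, and with dabrafenib and trametinib it stood lower without passing the test. Its log2 level was 5.13, 5.16 and 4.78 in DMSO, 4.48, 4.62 and 4.67 in DT, 5.55, 5.80 and 5.80 in E, and 4.84, 5.52 and 4.998 in DTE. The E arrays lay above every other array and the DT arrays below every other array (34.5% of all genes had all DT arrays below all DMSO arrays), and the DMSO and DTE arrays overlapped. For E against DMSO the log2 change was 0.69 (SE 0.16, 95% CI 0.36 to 1.03, limma adjusted p = 0.00518), a call kept with any 1 array left out. For DT against DMSO it was -0.43 (95% CI -0.77 to -0.10), with an adjusted p of 0.0532 that did not pass. It passed without DMSO replicate 3 (-0.55, adjusted p = 0.0247), DTE replicate 1 (-0.43, adjusted p = 0.0379) or DTE replicate 2 (-0.43, adjusted p = 0.0236). It also passed without dim genes (adjusted p = 0.0386) and when only the 2 groups compared were fitted (adjusted p = 0.0285), whereas after quantile normalization the change was -0.21 (adjusted p = 0.444).

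With all 3 drugs THY1 stood between these extremes. DTE exceeded DT by 0.53 log2 units (SE 0.16, 95% CI 0.19 to 0.86, limma adjusted p = 0.0256). This call was lost without DT replicate 1 (0.47, adjusted p = 0.102), DT replicate 2 (0.54, adjusted p = 0.051) or DTE replicate 2 (0.33, adjusted p = 0.166), and after quantile normalization (0.38, adjusted p = 0.0876). DTE was 1.51-fold lower than E (log2 change -0.60, adjusted p = 0.0117), a call lost without DTE replicate 1 (-0.46, adjusted p = 0.0678) and after quantile normalization (-0.34, adjusted p = 0.185). Against DMSO, DTE gave 0.10 (95% CI -0.24 to 0.43, adjusted p = 0.693).

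Of the epithelial genes, CLDN4 rose most with entinostat. It neighbours CLDN3, its close relative, on chromosome 7. The stretches before the start of each gene are shown because the pair lies side by side. With entinostat alone CLDN4 passed the test and CLDN3 did not. On top of DT it was the other way round, CLDN3 passing (0.55, limma adjusted p = 0.0394) and CLDN4 not (0.60, adjusted p = 0.0608). The difference between the genes was not tested. Each stretch is the 250 bases upstream of the start, from RefSeq (GRCh38.p14), 5′ to 3′ on the strand of the gene. Capitals mark matches, on either strand, to the GC box GGGCGG, a site of SP-family factors, and to TGANTCA, a site of AP-1. The TATA box TATAAA and CACCTG, the E-box of the SNAI and ZEB type, were also searched and had 0 matches in each stretch.
CLDN4 promoter, chr7:73830746-73830995, plus strand: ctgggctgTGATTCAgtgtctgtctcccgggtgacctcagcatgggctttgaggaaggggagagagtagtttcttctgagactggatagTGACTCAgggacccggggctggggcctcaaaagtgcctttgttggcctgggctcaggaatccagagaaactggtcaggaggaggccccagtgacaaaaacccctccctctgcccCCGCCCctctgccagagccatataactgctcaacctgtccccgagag
CLDN3 promoter, chr7:73770271-73770520, minus strand: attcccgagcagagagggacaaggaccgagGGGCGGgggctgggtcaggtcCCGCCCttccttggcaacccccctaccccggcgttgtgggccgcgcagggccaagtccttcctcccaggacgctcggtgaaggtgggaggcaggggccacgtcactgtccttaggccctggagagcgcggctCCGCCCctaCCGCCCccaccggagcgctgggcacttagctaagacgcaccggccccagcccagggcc
The CLDN4 stretch held 1 GC box, at -47 from the start, and 2 AP-1 matches, at -242 and -161, with a GC content of 58.8% and 4 CpG dinucleotides. The CLDN3 stretch held 4 GC boxes, no AP-1 match, a GC content of 71.6% and 19 CpG dinucleotides. Among 35116 promoter stretches of the same length, 42.6% held a GC box, 6.6% an AP-1 match, 10.7% a TATA box and 17.5% the E-box. The medians were 58.0% GC and 11 CpG. A match describes the letters and not a bound site. The stretches of LUM, DCN, THY1 and EPCAM were not analysed here.

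The CLDN4 log2 level was 4.01, 3.45 and 3.46 in DMSO, 3.56, 3.00 and 2.38 in DT, 4.57, 4.66 and 4.90 in E, and 3.55, 3.49 and 3.71 in DTE. The 3 E arrays lay above all 9 others, and the DMSO, DT and DTE arrays overlapped. The log2 change for E against DMSO was 1.07 (SE 0.22, 95% CI 0.61 to 1.52, limma adjusted p = 0.00201), a call kept with any 1 array left out and under quantile normalization (0.84, adjusted p = 0.028). With all 3 drugs the rise over DMSO was not seen: DTE against DMSO gave -0.06 (95% CI -0.51 to 0.40, adjusted p = 0.878), and DTE was 2.18-fold lower than E (log2 change -1.12, 95% CI -1.58 to -0.67, adjusted p = 0.00131).

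CLDN4 varied most among the DT arrays (SD 0.59), of which replicate 3 (2.38) lay under the lower quartile of all genes (2.91). Comparisons with that group were unsettled. DT against DMSO gave -0.66 (SE 0.22, limma adjusted p = 0.03), a 1.58-fold fall. Omitting DMSO replicate 1 left -0.48 (adjusted p = 0.149) and no call, and the call also went without DT replicate 2 (-0.67, adjusted p = 0.0575) or DT replicate 3 (-0.36, adjusted p = 0.206), and after quantile normalization (-0.60, adjusted p = 0.124). It was the only 1 of the 5 called in DT against DMSO, where 24.1% of all genes were called lower (3514, or 2278 without DMSO replicate 2 and 2267 without DT replicate 1) and 3.23% higher, or 7.86% lower and 8.55% higher after quantile normalization. DTE against DT gave 0.60 (95% CI 0.15 to 1.06, adjusted p = 0.0608), and 0.89 (adjusted p = 0.00458) without DT replicate 1 and 0.60 (adjusted p = 0.0481) without DMSO replicate 1.

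EPCAM was low in the untreated line and higher in both groups with entinostat. Its log2 level was 2.89, 3.13 and 2.77 in DMSO, 3.04, 2.97 and 2.80 in DT, 3.48, 3.95 and 3.55 in E, and 3.53, 3.31 and 3.40 in DTE. Every array with entinostat lay above every array without it, and E and DTE overlapped, as did DMSO and DT. The DMSO mean of 2.93 lay under the lower quartile of all genes (2.98), so the level there was not shown to lie above background. The log2 change for E against DMSO was 0.73 (SE 0.14, 95% CI 0.44 to 1.03, limma adjusted p = 0.0013), a call kept with any 1 array left out, under quantile normalization (0.56) and under median centring (0.53).

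On top of dabrafenib and trametinib, the EPCAM change was 0.48 (SE 0.14, 95% CI 0.18 to 0.78, limma adjusted p = 0.0231). The call was lost without DT replicate 3 (0.41, adjusted p = 0.105), DTE replicate 1 (0.42, adjusted p = 0.0754) or DTE replicate 3 (0.48, adjusted p = 0.0544), and after median centring (0.30, adjusted p = 0.098). DT alone left EPCAM at the DMSO level within error (log2 change 0.01, 95% CI -0.29 to 0.30). The DTE signal read 0.49 above DMSO (adjusted p = 0.0133), a call lost on omitting DMSO replicate 3 (0.40, adjusted p = 0.0604) or DTE replicate 1 (0.43, adjusted p = 0.0547), and DTE against E gave -0.25 (95% CI -0.55 to 0.05, adjusted p = 0.211).

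**Figure D2:**
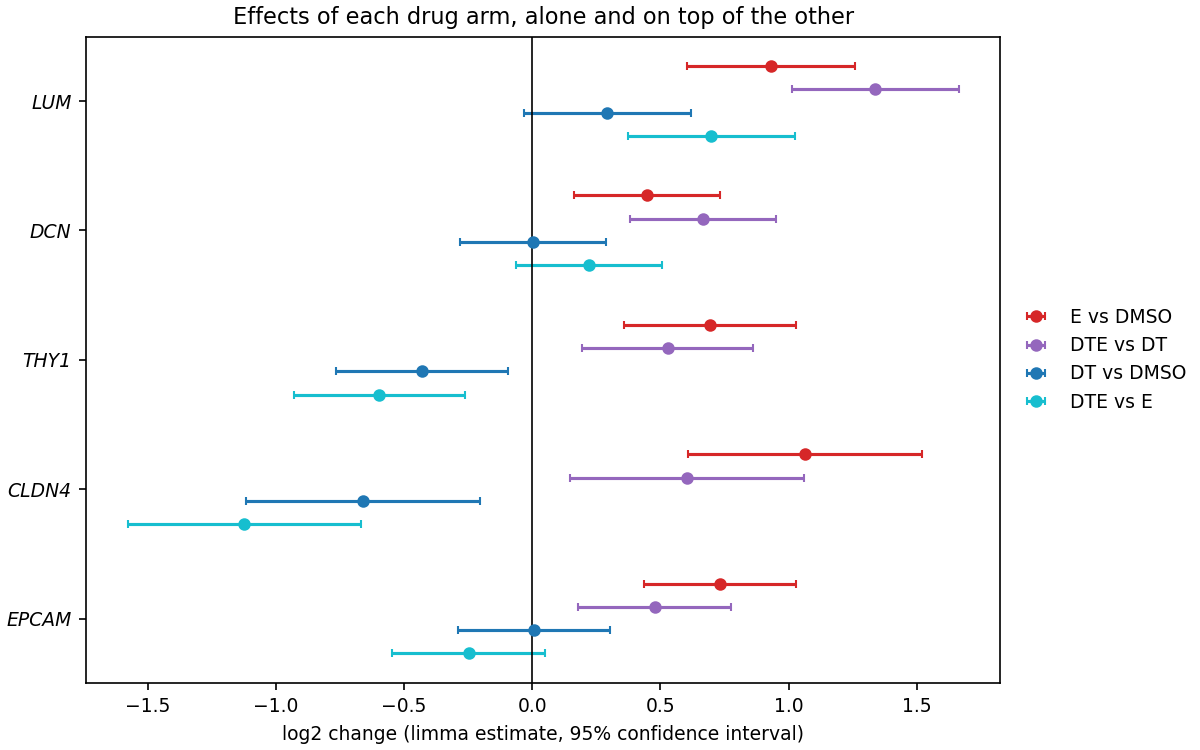
Log2 change (horizontal axis) with its 95% confidence interval for LUM, DCN, THY1, CLDN4 and EPCAM in E against DMSO, DTE against DT, DT against DMSO and DTE against E, from the limma fit over 12 arrays. All 5 intervals for entinostat alone lie above 0, whereas in DTE against E LUM lies above 0 (0.70) and THY1 and CLDN4 lie below it (-0.60 and -1.12).

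The group order thus differed from gene to gene. Mean LUM and DCN stood in the order DMSO, DT, E and DTE, with DMSO and DT not separated by the test for either gene and E and DTE not separated for DCN. Mean THY1 stood in the order DT, DMSO, DTE and E, with DMSO separated from neither DT nor DTE. Mean CLDN4 stood in the order DT, DTE, DMSO and E, with DTE separated from neither DT nor DMSO. EPCAM was lowest in DMSO and DT, which differed by 0.01, and DTE and E were not separated. In DTE against E, 1 of the 5 was called higher and 2 lower, each without overlap of arrays (3.93% of all genes lay wholly above and 35.6% wholly below). There 2.08% of all genes were called higher and 22.4% lower (3271, or 2132 without DTE replicate 1), or 6.99% and 5.84% after quantile normalization, when 1 of the 5 was higher and 1 lower. In DTE against DMSO, 3 of the 5 were called higher, and 9.64% of all genes were called higher and 22.5% lower, or 14.2% each way after quantile normalization. LUM, DCN and EPCAM, the 3 called, lay wholly above DMSO, as 12.6% of all genes did.

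Whether the 3 drugs together gave the sum of the separate effects was tested as the departure of DTE from additivity on the log2 scale. None of the 5 genes departed (limma, 0 of 5 called and 0 of 5 at an unadjusted p under 0.05), where 1.04% of all genes were called. LUM had the largest positive value, 0.41 (95% CI -0.06 to 0.87, adjusted p = 0.504), and CLDN4 the largest negative, -0.46 (95% CI -1.11 to 0.18, adjusted p = 0.605). DCN gave 0.22 (95% CI -0.19 to 0.62), THY1 -0.17 (95% CI -0.64 to 0.31) and EPCAM -0.25 (95% CI -0.68 to 0.17). Each of these intervals includes 0.

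Most members of the wider proteoglycan family did not pass the test. Of 18 small leucine-rich proteoglycans 16 were measured, LUM and DCN among them. With entinostat alone 3 were called higher and 1 lower (3 and 1 after quantile normalization), where 12.5% and 3.54% of all genes were. LUM and DCN were among the 3. The median log2 change was 0.11 against 0.07 over all genes. Without single arrays the count lower was 0 in 5 of the 12 cases (without DMSO replicates 1 or 2, or any 1 of the E arrays). The third to rise was PRELP, a collagen-binding member of the same family. PRELP read 4.15, 3.55 and 3.63 in DMSO, 4.55, 4.79 and 4.48 in DT, 5.10, 5.10 and 5.08 in E, and 5.95, 6.12 and 5.67 in DTE. Its 4 groups did not overlap and had the order seen for mean LUM. PRELP rose by 1.32 (SE 0.16, limma adjusted p = 1.04e-05) in E against DMSO and by 1.31 (adjusted p = 7.7e-06) in DTE against DT, and it also rose with DT alone (0.83, adjusted p = 0.000702).

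BGN, KERA and EPYC, 3 other members of the family, did not pass the test on the deposited scale. BGN (biglycan) changed by 0.11 (adjusted p = 0.638) in E against DMSO and -0.22 (adjusted p = 0.252) in DTE against DT. After median centring the second change was -0.39 (limma adjusted p = 0.0228), which passed. KERA (keratocan, of the cornea) gave 0.06 and 0.11, and EPYC (epiphycan, of cartilage) gave 0.19 and 0.07. Every KERA and EPYC array lay under the lower quartile of all genes in its group, so neither was shown to lie above background. On top of DT the family had 3 members higher and 2 lower (13.8% and 5.09% of all genes), with a median of 0.10 against 0.06 over all genes. The count lower was 0 without DT replicate 2, DT replicate 3 or DTE replicate 2 and 1 without DTE replicate 3. After quantile normalization 3 were higher and 3 lower (12.2% and 12% of all genes), and after median centring 3 and 5.

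Decorin carries a glycosaminoglycan chain, and 16 of 21 enzymes of dermatan and chondroitin sulfate synthesis were measured. In E against DMSO 7 were called higher and 1 lower, with a median of 0.21 against 0.07 over all genes, of which 12.5% were called higher and 3.54% lower. The counts were 5 and 1 after quantile normalization (9.67% and 8.45% of all genes) and 3 and 3 after median centring. The count higher was 4 without DMSO replicate 1 or E replicate 3, and 3 without DMSO replicate 3. UST, the uronyl 2-sulfotransferase of these chains, rose by 1.10 (limma adjusted p = 8.35e-06), and XYLT2, which attaches the first sugar of the chain, rose by 0.61 (adjusted p = 0.00578). CHST14, the sulfotransferase that acts on dermatan sulfate, fell by 0.63 (adjusted p = 0.00121). On top of DT, 2 were higher and 2 lower (median 0.22), where 13.8% and 5.09% of all genes were. The count higher was 0 or 1 without any 1 of DMSO replicate 1, DT replicates 1 or 3, or DTE replicates 2 or 3, with 3 lower in the last case. After quantile normalization 1 was higher and 3 lower (12.2% and 12% of all genes), and after median centring 1 and 4.

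Among 12 receptors and growth factors that decorin is known to bind or restrain, 9 were measured. With entinostat alone 4 were called higher and 0 lower, and on top of DT 6 were higher and 0 lower, with 4 and 6 higher after quantile normalization as well. Of all genes, 12.5% and 13.8% were called higher in these comparisons, or 9.67% and 12.2% after quantile normalization. The medians of the list were 0.28 and 0.50, against 0.07 and 0.06 over all genes. CCN2, a secreted matricellular protein also called CTGF, read 8.49, 8.38 and 8.37 in DMSO and 9.83, 9.98 and 9.88 in E. It was 7.96, 7.97 and 8.04 in DT and 9.88, 9.85 and 9.87 in DTE, so each group with entinostat lay wholly above its comparator. CCN2 rose by 1.48 (limma adjusted p = 3.85e-08) and 1.87 (adjusted p = 1.74e-09). KDR, the VEGF receptor 2, rose by 1.19 and 1.90, and the endocytic receptor LRP1 rose by 0.96 with entinostat alone. Of 13 integrins and signal partners of THY1 5 were measured, none of them an integrin. In E against DMSO 1 was called higher and 4 were not called, and in DTE against DT 2 were higher and 0 lower (1 higher without DT replicate 1 or DTE replicate 2, and 2 higher and 1 lower after quantile normalization). Of all genes, 12.5% and 13.8% were called higher in these comparisons. With DT alone 0 of the 5 were higher and 4 lower (24.1% of all genes lower), or 2 lower after quantile normalization (7.86% of all genes). SDC4 (syndecan-4, a co-receptor that binds THY1) rose by 0.61 (adjusted p = 0.00374) with entinostat alone and by 1.07 on top of DT.

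The claudins other than CLDN4 did not move as a group with entinostat. Of 23, 22 were measured. In E against DMSO 1 was called higher and 0 lower, where 12.5% and 3.54% of all genes were. The median change was 0.07, equal to that of all genes. After quantile normalization 1 was higher and 1 lower (9.67% and 8.45% of all genes), and after median centring 0 and 4. The 1 called on the deposited scale was CLDN1, at 0.40 (limma adjusted p = 0.0423). Without any 1 of 6 arrays (DMSO replicates 1 or 3, DT replicate 3, or any E replicate) the CLDN1 change was 0.36 to 0.44 and the call was lost, as it was after median centring (0.20, adjusted p = 0.225). CLDN3 gave 0.47 (adjusted p = 0.0932) and CLDN7 0.37 (adjusted p = 0.106) in the same comparison.

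CLDN1, a claudin of the skin barrier, fell with dabrafenib and trametinib. It read 7.94, 8.03 and 7.86 in DMSO, 5.05, 5.41 and 5.28 in DT, 8.42, 8.26 and 8.35 in E, and 6.90, 6.73 and 7.11 in DTE. No groups overlapped. CLDN1 fell by 2.70 with DT (limma adjusted p = 5.39e-11), a 6.50-fold change, and was 3.18-fold higher in DTE than in DT (log2 change 1.67, adjusted p = 7.05e-08). In that comparison 3 of the 22 claudins were called higher and 0 lower (median 0.03), near the 13.8% of all genes called higher. The count higher was 1 without DT replicate 1, DT replicate 3, DTE replicate 1 or DTE replicate 3 and after quantile normalization. With DT alone 0 of the 22 were higher and 5 lower, near the 24.1% of all genes called lower there, or 0 and 2 after quantile normalization, near the 7.86% of all genes.

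Among 20 other genes of the tight junction 15 were measured. In E against DMSO 8 were called higher, 0 lower and 7 not called, with 9 and 0 after quantile normalization and 6 and 0 after median centring. In DTE against DT 9 were higher, 0 lower and 6 not called (9 and 0 after quantile normalization, 8 and 1 after median centring). Of all genes, 12.5% and 13.8% were called higher in these comparisons, or 9.67% and 12.2% after quantile normalization. The medians of the list were 0.47 and 0.54, against 0.07 and 0.06 over all genes. TJP3 (ZO-3, a scaffold protein under the junction) read 3.51, 3.41 and 3.68 in DMSO and 5.46, 4.71 and 5.14 in E. It was 3.67, 3.38 and 3.29 in DT and 5.32, 5.40 and 4.73 in DTE. The arrays with and without entinostat were separated in both settings, and TJP3 rose by 1.57 (limma adjusted p = 1.21e-05) and 1.70 (adjusted p = 3.48e-06). JAM3 and JAM2, adhesion molecules of the junction, rose by 1.09 and 0.96 in E against DMSO, and the cytoplasmic linker CGN (cingulin) rose by 1.04 in DTE against DT. The JAM2 arrays in DMSO (2.647, 2.51 and 2.605) lay under the lower quartile of all genes (2.98). JAM2 was thus not shown to lie above background there.

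**Figure D3:**
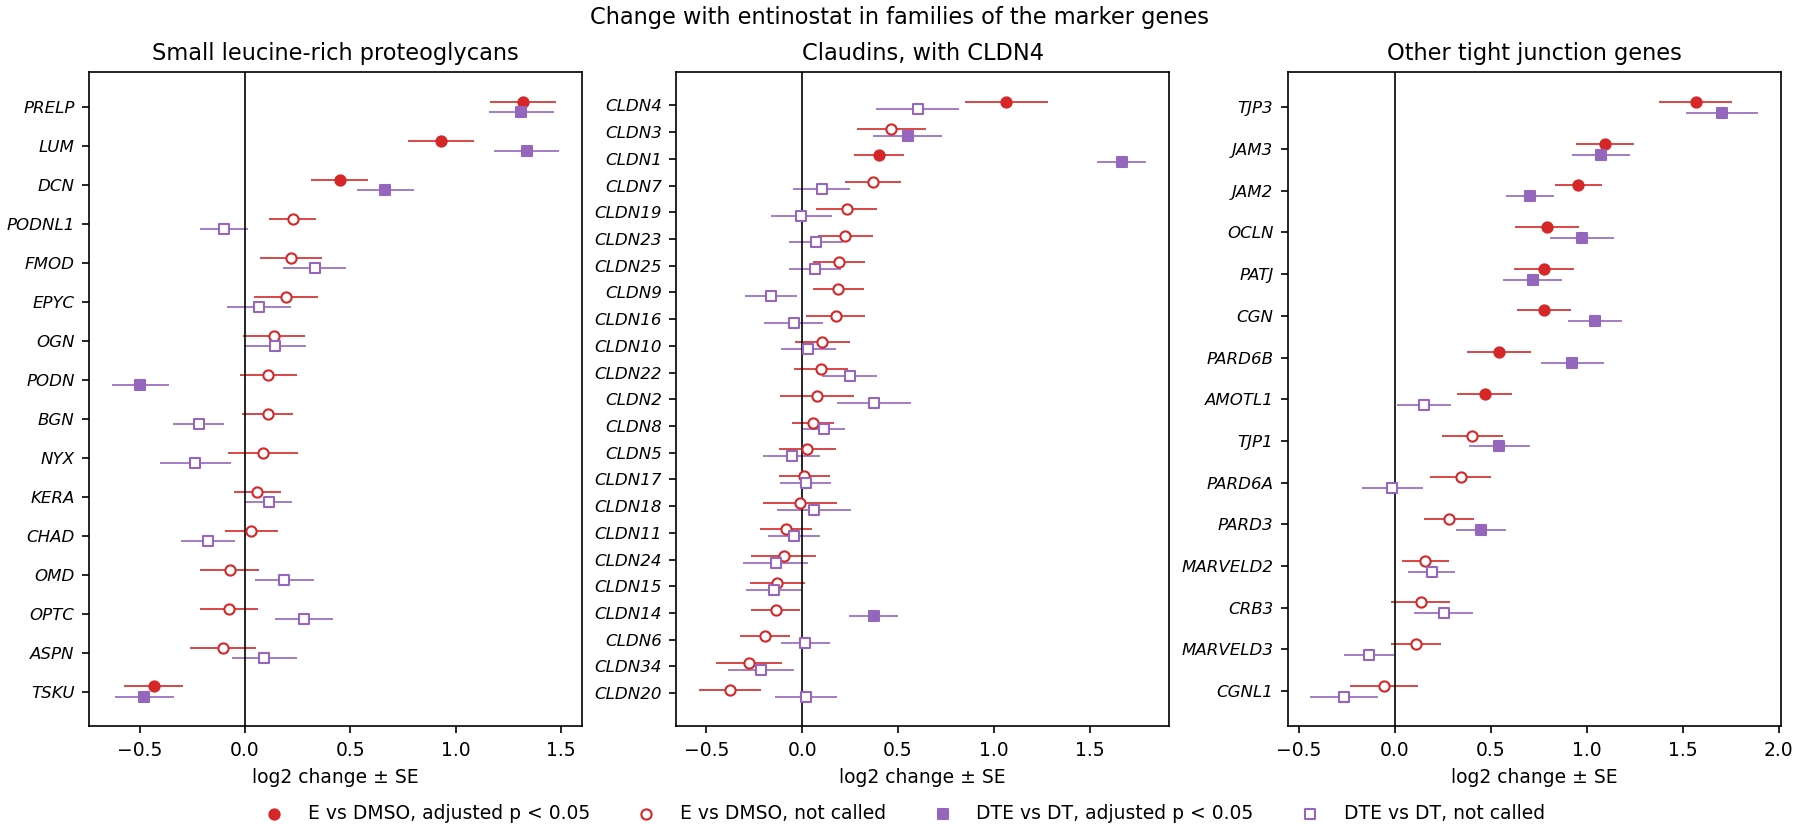
Log2 change ± SE (horizontal axis) in E against DMSO and in DTE against DT for each measured small leucine-rich proteoglycan, claudin and other tight junction gene; filled points passed the limma test at adjusted p under 0.05. LUM and PRELP lead the proteoglycans, CLDN4 leads the claudins with entinostat alone (1.07) and CLDN1 leads them on top of DT (1.67), and TJP3 leads the other tight junction genes (1.57 and 1.70).

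Beyond the tight junction, 13 of 24 epithelial markers were measured. In E against DMSO 6 were called higher and 0 lower (median 0.43), or 3 and 0 after quantile normalization. Of all genes, 12.5% were called higher there, or 9.67% after quantile normalization. CD24, a small mucin-like surface protein of epithelial and other progenitor cells, read 3.91, 3.70 and 4.20 in DMSO, 6.70, 7.001 and 6.62 in DT, 7.27, 7.40 and 7.48 in E, and 8.56, 8.87 and 8.93 in DTE. CD24 thus rose without overlap in each group, by 3.45 with entinostat alone (10.9-fold, limma adjusted p = 7.17e-11) and by 2.84 with DT. GRHL1, an epithelial transcription factor, rose by 0.81 (adjusted p = 0.000333), and LSR, the angulin of tricellular junctions, by 0.69 (adjusted p = 0.00151). On top of DT, 3 markers were higher and 1 lower (median 0.13), where 13.8% and 5.09% of all genes were. The counts were 5 and 0 without DTE replicate 1 and 3 and 0 without DT replicate 2 or DTE replicate 2. After quantile normalization they were 3 and 2 (12.2% and 12% of all genes). The summed intensity of this list was 204 to 229 in DMSO, 253 to 289 in DT, 425 to 466 in E and 548 to 675 in DTE. CD24 carried most of that rise: without it the other 12 markers summed to 186 to 216, 149 to 161, 270 to 288 and 171 to 191, so that they stood higher in E and the DTE and DMSO ranges overlapped.

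Genes that repress or replace the epithelial programme were followed as well. Of 11 transcription factors and mesenchymal genes of the epithelial-mesenchymal transition 9 were measured. In E against DMSO 2 were higher and 0 lower (12.5% and 3.54% of all genes). After quantile normalization 2 were higher and 1 lower (9.67% and 8.45% of all genes), the 1 lower being SNAI2 (-0.27, limma adjusted p = 0.0459). On the deposited scale 1 was higher without E replicate 1. That array decided SNAI1, a repressor of epithelial adhesion genes, which rose by 0.67 (limma adjusted p = 0.00787) and by 0.45 without it (adjusted p = 0.0524). In DTE against DT 4 were higher and 1 lower (13.8% and 5.09% of all genes). SNAI1 rose by 1.05, ZEB1 by 1.04 and TWIST1 by 0.89, all factors of that transition, while SNAI2, which belongs to the same family as SNAI1, fell by 0.83. In DT, SNAI1 and ZEB1 lay wholly below DMSO and SNAI2 wholly above. SNAI1 in DTE (6.22, 6.31 and 6.09) still lay below DMSO (6.33, 6.53 and 6.44), as did ZEB1 (5.15, 5.16 and 5.32 against 5.73, 5.77 and 5.42). SNAI2 and TWIST1 in DTE lay above DMSO. For TWIST1, DMSO and DT overlapped. Of 12 partners of EpCAM processing and signalling 9 were measured. In E against DMSO 2 of them were higher and 0 lower (1 higher without E replicate 3, and 1 lower without DTE replicate 1 or 3). In DTE against DT 3 of them were higher and 0 lower (1 higher without DT replicate 1). Of all genes, 12.5% and 13.8% were called higher in these comparisons. After quantile normalization 3 partners were higher and 1 lower in each. The shares of all genes were then 9.67% and 12.2% higher, and 8.45% and 12% lower.

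Markers of other cell types were read beside the rise of LUM, DCN, THY1, CLDN4 and EPCAM. Of 15 fibroblast markers 4 were measured, and none was called in E against DMSO (limma, 0 of 4, with 1 at an unadjusted p under 0.05). On top of DT 1 was called higher, SFRP2 (0.48, adjusted p = 0.0428), and 3 had an unadjusted p under 0.05. The median there was 0.34, against 0.06 over all genes. The SFRP2 call was lost without any 1 of 6 arrays (0.33 to 0.52) and after quantile normalization (0.41, adjusted p = 0.0543). The summed intensity of the 4 markers was 39.8 to 43.9 in DMSO, 34.3 to 39.8 in DT, 48.9 to 50.9 in E and 43.4 to 49.6 in DTE. Of 14 keratinocyte markers 11 were measured, and none was called (limma, 0 of 11, with 3 at an unadjusted p under 0.05; 1 called without DMSO replicates 1 or 3, E replicate 1, or DTE replicates 1 or 3). Their summed intensity was 89.1 to 97.1 in DMSO and 93.9 to 108 in E. Of 6 measured smooth muscle and pericyte markers out of 9, 2 were higher in E against DMSO, RGS5, a regulator of G-protein signalling, by 1.03 and the receptor NOTCH3 by 0.96, and the summed intensity was 654 to 781 in DMSO and 754 to 777 in E. Of 7 measured endothelial markers out of 10, 2 rose, and 1 of 5 measured blood cell markers out of 14 did (2 without E replicate 2). On top of DT, 2 smooth muscle and pericyte, 2 endothelial, 1 blood cell and 0 keratinocyte markers were called higher and 0 lower. The first count was 1 without DT replicates 1 or 3 or DTE replicates 2 or 3. The blood cell count was 0 without DT replicates 1 or 3 or DTE replicate 3, and after quantile normalization. Of all genes, 12.5% were called higher in E against DMSO and 13.8% in DTE against DT. PTPRC, PECAM1 and CDH5, which define blood and endothelial cells, were not analysed here. The part of these lists in the rise of the 5 genes was not tested.

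Melanocyte markers fell when entinostat was added to dabrafenib and trametinib. In E against DMSO 1 of 9 was higher and 3 lower (median -0.08), where 12.5% and 3.54% of all genes were. MITF, the master transcription factor of the lineage, fell by 0.68 (limma adjusted p = 0.00396). In DTE against DT 0 of the 9 were higher and 7 lower (median -0.68), except without DMSO replicate 1, when 1 was higher. Of all genes, 13.8% were called higher and 5.09% lower there. TYRP1 fell by 1.46 and MLANA by 1.13, a pigment enzyme and a melanosome protein. With DT alone 5 of the 9 markers were higher and 0 lower (median 1.08), where 3.23% and 24.1% of all genes were. The relation of this list to the rise of the 5 genes was not tested.

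The neighbours on the chromosome were read in the order of the RefSeq annotation, 3 measured genes on each side. LUM and DCN lie next to each other on chromosome 12 with KERA and EPYC, also small leucine-rich proteoglycans. Of the genes around this pair (KERA, EPYC, CCER1, PLEKHG7, EEA1 and LOC643339), none passed the test in either comparison with entinostat, where 16.1% of all genes were called in E against DMSO and 18.9% in DTE against DT. None of 6 genes around EPCAM passed either, the nearest to the threshold being TTC7A (0.33, limma adjusted p = 0.0885, E against DMSO). Of those genes, MIR559 and LINC01119 also lay under the lower quartile in every DMSO array. Around THY1 only USP2, a deubiquitinating enzyme, was called. USP2 read 4.02, 3.25 and 3.64 in DMSO and 5.59, 5.71 and 5.62 in E, and it rose by 2.00 (adjusted p = 6.76e-08) with entinostat alone and by 1.44 (adjusted p = 2.29e-06) on top of DT.

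Around CLDN4 several genes rose with it. METTL27, a methyltransferase-like gene, rose by 0.87 (limma adjusted p = 0.000667) in E against DMSO and by 0.47 (adjusted p = 0.0416) in DTE against DT. The second call was lost without any 1 of the 6 DT and DTE arrays (0.43 to 0.52) and after quantile normalization (0.31). TMEM270, a transmembrane protein gene whose DMSO mean of 2.29 lay under the lower quartile, rose by 0.97 (adjusted p = 0.00048) and 0.98 (adjusted p = 0.000359). STX1A, a syntaxin of vesicle fusion, rose by 0.46 (adjusted p = 0.0217) in E against DMSO, a call lost without DMSO replicate 1 (0.42), E replicate 1 (0.40) or E replicate 3 (0.47) and after median centring (0.26, adjusted p = 0.12). In DTE against DT the STX1A change was 0.28 and not called (adjusted p = 0.158). CLDN3, next to CLDN4 on the side away from METTL27, was 0.47 higher in E against DMSO and not called (adjusted p = 0.0932). On top of DT it rose by 0.55 (adjusted p = 0.0394), a call lost without DT replicates 1 or 3 or DTE replicates 1 or 3 (0.44 to 0.58) and after quantile normalization (0.44, adjusted p = 0.0605). ELN (elastin) and BICDL3P, a pseudogene, were not called on the deposited scale. In DTE against DT BICDL3P was called lower after quantile normalization (-0.57, limma adjusted p = 0.0209) and after median centring (-0.59, adjusted p = 0.0179). In E against DMSO ELN was called lower after median centring (-0.42, adjusted p = 0.0455).

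**Figure D4:**
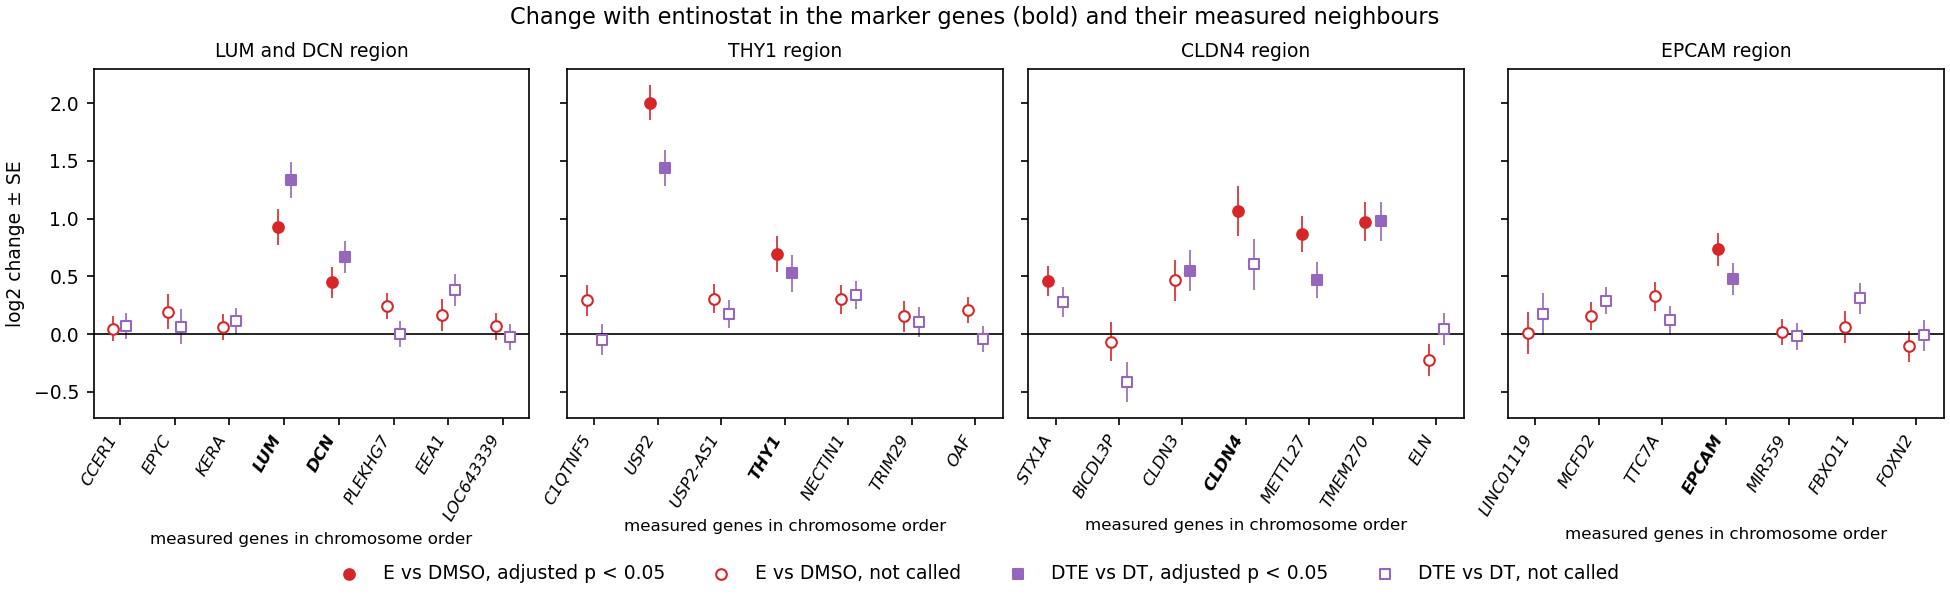
Log2 change ± SE (vertical axis) in E against DMSO and in DTE against DT for each gene and its 3 measured neighbours on each side, in chromosome order. The region of LUM and DCN shows these 2 genes filled among neighbours that did not pass and that, but for EEA1, were dim. USP2 stands out beside THY1 (2.00), and METTL27 and TMEM270 rise beside CLDN4 (0.87 and 0.97).

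Genes whose pattern over the 12 arrays was most like that of each gene were ranked by Pearson's r, among genes above the lower quartile. The arrays share the 4 treatments, so r is a description of likeness. LUM was most like CSRP2, a LIM-domain protein (r = 0.993), followed by STK38L (0.986) and GRAMD2B (0.983). CSRP2 had means of 5.80, 5.98, 6.36 and 6.76 in DMSO, DT, E and DTE, the order of mean LUM. DCN was most like LINC00052, a long non-coding RNA (0.964), and RECK, a membrane inhibitor of metalloproteinases (0.949). THY1 was most like BCAM, a laminin-binding adhesion molecule (0.961), and TSPAN18, a tetraspanin (0.957). BCAM was lowest in DT (mean 5.54) and highest in E (6.78), as THY1 was. CLDN4 was most like DNMT3B, a de novo DNA methyltransferase (0.954), and HS3ST1, a heparan sulfate sulfotransferase (0.953). EPCAM was most like FBXL16, an F-box protein (0.967), and MYO5B, a myosin of membrane traffic (0.953).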

How the data were processed

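For each probe set the authors deposited a linear intensity from every array. RMA, which corrects background, normalizes and summarises probes, and the Transcriptome Analysis Console are named, without versions, in the submitters' processing notes. Because array medians differed, a later scaling is possible; it and the genome build are not given in the sources used here. The ERCC spike-in that the labels mention was not used here.

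Of 29396 probe sets, 14748 had 1 gene symbol and 14648 none; symbols were updated by gene ID (14748 matched). For 156 genes with several probe sets the brightest was used, which left 14580 genes, with no filter on dim genes. The deposited intensities were converted to log2. Group means over 12 arrays were fitted with limma 3.58.1 in R 4.3.3 (lmFit, eBayes; 8 residual degrees of freedom), and p-values were Benjamini-Hochberg adjusted over all genes, with calls at 0.05. DT, E and DTE were compared with DMSO, DTE with DT and E, and DTE with the sum of separate effects. Errors of changes are moderated standard errors. The number of arrays limits the precision.

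Groups came from the treatment labels. The 5 genes and the 17 lists (225 genes, 155 measured) were chosen with earlier results of these data known. Named genes were the 5 genes, up to 3 called genes each way per list with non-overlapping arrays, close paralogs, chromosome neighbours and, per gene, the 5 with the highest correlation; within that set, examples were chosen with their values known. Alternatives were quantile normalization, median centring, log2 of intensity plus 8, a filter on dim genes, fitting the compared groups alone, a robust trended prior, the replicate block and leaving out each array. The fit was tested on simulated data.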

Additional observations from a re-analysis of the deposited data

Results flagged for a closer look

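In 5 genes of the lists set beside LUM, DCN, THY1, CLDN4 and EPCAM, the effect of entinostat differed with and without dabrafenib and trametinib, by the limma test of the departure of DTE from additivity with Benjamini-Hochberg adjustment over all genes. Of all genes, 1.04% were called by this test. CLDN1, a claudin, departed by 1.27 (adjusted p = 0.00179): entinostat changed it by 0.40 alone and by 1.67 on top of DT, which by itself had lowered it by 2.70. CD24, an epithelial marker, departed by -1.44 (adjusted p = 0.00183), with changes of 3.45 and 2.01. TYRP1, a pigment enzyme, departed by -1.24 (adjusted p = 0.00309), with changes of -0.21 and -1.46. TLR4, a receptor that binds decorin, departed by 1.09 (adjusted p = 0.0331), with changes of -0.24 and 0.85. Its call was lost without any 1 of 9 of the 12 arrays (0.97 to 1.12), the exceptions being DMSO replicate 3, DT replicate 2 and DTE replicate 2. PMEL, a melanosome protein, departed by -0.74 (adjusted p = 0.0345), with changes of 0.12 and -0.62. Its call was lost without any 1 of 9 arrays (-0.75 to -0.68), the exceptions being DT replicate 1, E replicate 2 and DTE replicate 1.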

How the results depend on the processing

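Of the 5 genes in E against DMSO, only DCN changed its call: it was lost after median centring (0.25) and with log2 of intensity plus 8 (0.16), and ranged from 0.39 to 0.57 with 1 array left out. For DTE against DT, THY1 was lost after quantile normalization (0.38) and median centring (0.35), with 0.33 to 0.67 with 1 array left out. EPCAM was lost after median centring (0.30) and with intensity plus 8 (0.25), with 0.41 to 0.53. CLDN4 was gained without dim genes (0.60), with 0.31 to 0.89. The replicate block gave CLDN4 0.60 (adjusted p = 0.0492) and made the THY1 fall with DT pass (adjusted p = 0.0338), and changed no other call among these genes. The numbers did not pair the arrays, with residual correlations of -0.0966 to 0.172 for same-numbered arrays, 3 of 18 over 0.1. With 1 array left out, 4 changes that did not pass the test spanned 0: DCN (-0.084 to 0.102) and EPCAM (-0.074 to 0.109) in DT against DMSO, and THY1 (-0.102 to 0.236) and CLDN4 (-0.152 to 0.127) in DTE against DMSO. Counts over all genes moved most with scaling. Quantile normalization gave 1232 lower in E against DMSO, 1752 lower in DTE against DT, 1247 higher and 1146 lower in DT against DMSO, 2064 lower in DTE against DMSO, 1019 higher and 851 lower in DTE against E, and 174 higher and 140 lower departures. Median centring gave 1098 higher and 2372 lower in E against DMSO, 2245 lower in DTE against DT, 1178 higher and 1743 lower in DT against DMSO, 978 higher and 1007 lower in DTE against E, and departures of 160 and 107. Departures were 113 lower with intensity plus 8, and 136 higher and 106 lower with a trended robust variance. With 1 array left out, counts lower were 303 to 580 in E against DMSO, 473 to 777 in DTE against DT, 2267 to 3923 in DT against DMSO and 2132 to 3372 in DTE against E, and departures were 46 to 108 higher and 36 to 69 lower. The causes were not tested. DCN has no value without dim genes, because the filter removes it.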
